A study of Mus musculus with 27 samples.

Results

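The microRNA profile of mouse embryonic stem (ES) cells lacking Jarid2 was set against that of ES cells lacking Ezh2. Jarid2 is a cofactor that helps bring Polycomb repressive complex PRC2 to its target sites, and Ezh2 is an enzyme of that complex. All loci of the deposited microRNA tables with at least 10 counts in the Jarid2-/- or the Ezh2-/- column were taken, which left 930 of 2035 mature microRNA loci. The other 1105 loci were below that minimum in both columns.

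The groups were Jarid2-/- cells, Ezh2-/- cells and, given beside them, Eed-/- and wild-type cells. All were labelled as the CJ7 strain, and the growth protocol lists a serum-containing ES medium with leukemia inhibitory factor. No source used here says how the alleles were made or whether a line is 1 clone. The labels list 1 small RNA sample for Jarid2-/- and 2 each for Ezh2-/-, Eed-/- and wild-type. Each genotype had 1 count column, and no source says whether the Ezh2-/- column pools its 2 samples. With 1 column per genotype there is no replicate check and no test, so every comparison below describes these columns. Intervals allow for counting error alone, and PCR copies of a molecule count as separate reads. The targeted genes encode proteins, were not measured in these tables and could not be checked here.

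PRC2 methylates lysine 27 of histone H3 and holds developmental genes silent. Ezh2 carries the catalytic site, Eed holds the complex together and reads the mark, and the related enzyme Ezh1 can take over part of the work of Ezh2. Jarid2 has no known enzyme activity and binds PRC2, nucleosomes and RNA. MicroRNAs are cut from hairpin precursors, each of which can give a 5p and a 3p arm. The arm loaded into Argonaute recognises messenger RNAs mainly through its seed, bases 2 to 8.

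The mature sequences that carry the comparison are given 5′ to 3′ as the deposited tables list them, with the seed in capitals. Both arms of 3 hairpins of the miR-290 cluster are shown because the 5p arms differed far more between the genotypes than their 3p partners.
miR-294-5p: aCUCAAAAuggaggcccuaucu
miR-294-3p: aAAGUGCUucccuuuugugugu
miR-292-5p: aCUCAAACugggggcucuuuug
miR-292-3p: aAAGUGCCgccagguuuugagugu
miR-295-5p: aCUCAAAUguggggcacacuuc
miR-295-3p: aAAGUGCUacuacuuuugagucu

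Members of the Gtl2-Rian-Mirg cluster are shown because this maternally expressed, imprinted locus differed most as a block. Their seeds are unlike each other.
miR-541-5p: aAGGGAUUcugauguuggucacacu
miR-665-3p: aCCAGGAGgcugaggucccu
miR-376b-3p: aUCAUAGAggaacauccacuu
miR-433-3p: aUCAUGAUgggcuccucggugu
miR-127-3p: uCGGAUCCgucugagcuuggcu

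The next sequences belong to microRNAs at the low end of the ratio, with the 5p partner of miR-124-3p.
miR-124-5p: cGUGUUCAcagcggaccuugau
miR-124-3p: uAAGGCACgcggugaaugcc
miR-22-3p: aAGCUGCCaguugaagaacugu
miR-320-3p: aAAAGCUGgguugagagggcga
miR-126a-3p: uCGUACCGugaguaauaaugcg

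The last set holds pairs that share a seed and differ by a single base, whose counts stood in different ratios in the columns.
miR-19b-3p: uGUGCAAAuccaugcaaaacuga
miR-19a-3p: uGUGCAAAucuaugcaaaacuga
miR-103-3p: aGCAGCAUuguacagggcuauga
miR-107-3p: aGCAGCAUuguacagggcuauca
miR-196a-5p: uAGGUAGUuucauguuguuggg
miR-196b-5p: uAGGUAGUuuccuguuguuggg

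The Jarid2-/- column summed to 8485806 microRNA counts and the Ezh2-/- column to 32074712, with 42293019 in Eed-/- and 23793733 in wild-type. Levels are given as CPM, the count scaled to the column's own microRNA total. A count of 0 allows up to 0.354 CPM in Jarid2-/- and 0.0935 CPM in Ezh2-/-, taking 3 counts as the limit. In Jarid2-/- 1224 loci had a count, and in Ezh2-/- 1385. MicroRNA counts made up 13.6% of the authors' denominator in Jarid2-/- and 13.2% in Ezh2-/-. The miR-290 cluster, which marks mouse ES cells, held 38.2% of microRNA counts in Jarid2-/- and 45.9% in Ezh2-/-.

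The columns also differed in how counts fell on near-identical sequences, and this touches several results. At base 11, counted from the 5′ end, miR-19b-3p and miR-19a-3p differ by C11U. The miR-19a-3p count was 0.576 of the miR-19b-3p count in Jarid2-/- and 0.0372 in Ezh2-/-, with 0.598 in Eed-/- and 0.0464 in wild-type. For miR-103-3p and miR-107-3p (G22C) the ratio of miR-107-3p to miR-103-3p was 0.958 in Jarid2-/- and 0.500 in Ezh2-/-, with 0.959 in Eed-/- and 0.670 in wild-type. For miR-196a-5p and miR-196b-5p (A12C) the ratio of miR-196b-5p to miR-196a-5p was 0.95 in Jarid2-/- and 0.215 in Ezh2-/-, with 0.960 in Eed-/- and 0.180 in wild-type. In each of these pairs the Jarid2-/- and Eed-/- columns were close to each other, and the Ezh2-/- and wild-type columns gave the second member a smaller share.

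Across 41 pairs of well-counted mature sequences that differ by 1 substitution, the member rarer over all columns was divided by the more abundant one. This ratio had a median of 0.587 in Jarid2-/- and 0.349 in Ezh2-/-, with 0.488 in Eed-/- and 0.389 in wild-type. It was higher in Jarid2-/- than in Ezh2-/- in 31 of the 41 pairs, and in 20 of the 24 outside the Sfmbt2 cluster. The part of this difference in the results was not tested, and results are therefore also given without loci within 2 mismatches of a mature sequence of another name, called similar loci here. For several families the sum over the near-identical members is given too.

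Of the 930 loci, 307 (33%) were at least 2-fold higher in Jarid2-/- than in Ezh2-/- and 83 (8.92%) were at least 2-fold lower, on the scale of log2 of CPM plus 1. The other 540 lay within 2-fold. The median log2 ratio, Jarid2-/- over Ezh2-/-, was 0.33, with quartiles of -0.35 and 1.40. At least 4-fold higher were 173 loci and at least 4-fold lower 29, and at least 16-fold higher were 44 loci and at least 16-fold lower 6. The calls nearest the limit were miR-28a-3p at 1.003 and miR-293-5p at -1.002, and the nearest loci not called were miR-188-3p at 0.9985 and miR-19b-1-5p at -0.9996.

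The excess of higher loci depends in part on the scaling. With factors from a trimmed mean (TMM) the median moved to -0.10, with 226 loci higher (24.3%) and 179 lower (19.2%). Scaling by median ratios gave 240 higher (25.8%) and 150 lower (16.1%), and scaling by the authors' read denominators 229 higher (24.6%) and 46 lower (4.95%). Values below are on the scale of total microRNA counts, and on the TMM scale each log2 ratio is about 0.65 lower for abundant loci. Where TMM turns the direction of a list, this is said beside it.

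The calls were unevenly placed along the genome. Of the 307 higher loci, 76 lay in the Gtl2-Rian-Mirg cluster on chromosome 12 and 87 in the list of the Sfmbt2 cluster. That list was taken by name, and 84 of its higher loci lay in the cluster inside Sfmbt2 on chromosome 2. Among the 719 loci outside both lists, 144 (20.0%) were higher and 82 (11.4%) lower, with a median of 0.06. Outside these lists the median per chromosome ran between -0.42 on chromosome 6 and 0.64 on chromosome 3.

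**Figure D1:**
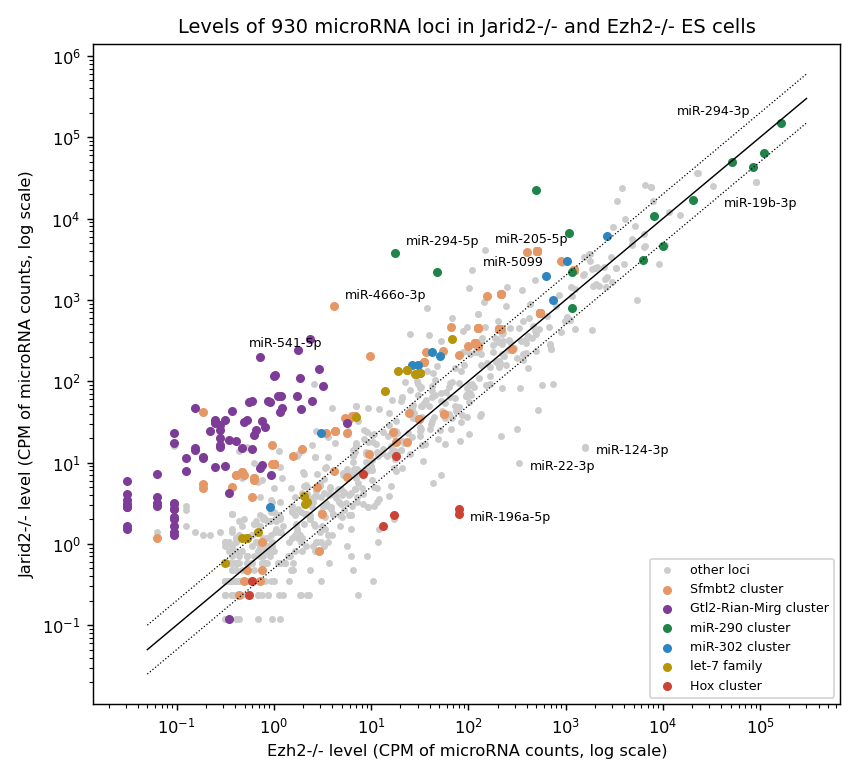
Level of each of the 930 loci in Jarid2-/- cells (vertical axis) against Ezh2-/- cells (horizontal axis), both in CPM of microRNA counts on log scales. The solid line marks equal levels, the dotted lines a 2-fold difference, and loci with a count of 0 are drawn at the level of 3 counts. The Gtl2-Rian-Mirg loci other than miR-3544-5p lie above the line at Ezh2-/- levels under 10 CPM, and miR-124-3p, miR-22-3p and miR-196a-5p lie far below it.

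The Gtl2-Rian-Mirg cluster, also called Dlk1-Dio3, is an imprinted locus whose long noncoding RNAs and microRNAs are made from the maternal chromosome. Its 114 microRNA loci span chr12:110801920-110986159 (mm9), with 108 on the plus strand and 6 on the minus strand. Summed over all 114, it held 23590 counts in Jarid2-/- and 1554 in Ezh2-/-, which in CPM were 2779.9 in Jarid2-/- and 48.4 in Ezh2-/- cells, with 7474 in Eed-/- and 48584 in wild-type. The Jarid2-/- sum was 57.4-fold higher (95% interval 54.5 to 60.4), and 36.6-fold higher with TMM. Jarid2-/- thus lay between Ezh2-/- and the other genotypes in this sum, with Eed-/- next and wild-type highest. In a bulk culture, fewer expressing cells and less RNA per cell cannot be told apart.

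In Ezh2-/- the cluster was close to empty. Of its 114 loci, 12 had no count in Jarid2-/- and 39 had none in Ezh2-/-, although the Ezh2-/- column was deeper, and 4 had none in Eed-/- and 6 none in wild-type. At least 100 counts were reached by 46 loci in Jarid2-/- and by 2 in Ezh2-/-, with 78 in Eed-/- and 88 in wild-type. The highest locus had 328 CPM in Jarid2-/- and 5.64 CPM in Ezh2-/-, against 1374 CPM in Eed-/- and 4383 CPM in wild-type.

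The minimum of 10 counts was passed by 77 of the 114 loci, and 39 of these passed through Jarid2-/- alone, so that their direction was largely set by the filter. Of the 77, 76 were at least 2-fold higher in Jarid2-/- and none lower, with a median log2 ratio of 3.79. Over all loci 33% were higher and 8.92% lower. The 37 loci with at least 10 counts in both columns ran from 1.96 to 6.85. The exception was miR-3544-5p, which had 1 count in Jarid2-/- and 11 in Ezh2-/- and a log2 ratio of -0.26. Without similar loci 67 of 68 were higher, and the summed fold was 56.9.

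All 4 stretches of the locus shared the difference. The loci nearest Gtl2 summed to 400.4 CPM in Jarid2-/- and 5.21 CPM in Ezh2-/-, 76.9-fold higher (95% interval 65.8 to 90.4). Those antisense to Rtl1 summed to 253 CPM in Jarid2-/- and 4.96 CPM in Ezh2-/-, 51.02-fold higher (95% interval 43.4 to 60.3). Both of these first stretches were thus nearly silent in Ezh2-/- cells. Those of Rian summed to 69.2 CPM in Jarid2-/- and 0.966 CPM in Ezh2-/-, 71.6-fold higher (95% interval 49.9 to 106). The 77 loci of Mirg, the longest stretch, summed to 2057 CPM in Jarid2-/- and 37.3 CPM in Ezh2-/-, 55.1-fold higher (95% interval 51.99 to 58.5). All 4 folds lie between 51.0 and 76.9. The interval of the stretch nearest Gtl2 lies above that of Mirg, but its sum rests largely on 1 locus. There miR-665-3p held 2782 of the 3398 counts in Jarid2-/- and 76 of the 167 in Ezh2-/-.

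Single members show how low the Ezh2-/- level was. miR-541-5p (chr12:110980632-110980656) had 1667 counts in Jarid2-/- and 23 in Ezh2-/-, which is 196 CPM in Jarid2-/- and 0.717 CPM in Ezh2-/-, 274-fold higher (95% interval 182 to 433). Its level was 1374 CPM in Eed-/- and 849.8 CPM in wild-type cells. At the Gtl2 end, miR-665-3p (chr12:110824578-110824597) had 2782 counts in Jarid2-/- and 76 in Ezh2-/-, 138-fold higher (95% interval 110.2 to 176). Both are among the most abundant members in Jarid2-/- cells.

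The miR-376 family clusters within Mirg. Its member miR-376b-3p had 244 CPM in Jarid2-/- and 1.78 CPM in Ezh2-/- cells, with 345 CPM in Eed-/- and 3612 CPM in wild-type cells. For miR-134-5p, known as a regulator of dendritic spines in neurons, the values were 117 CPM in Jarid2-/- and 0.998 CPM in Ezh2-/-, with 184 CPM in Eed-/- and 728 CPM in wild-type cells. In both the levels rank as in the cluster sum, with Ezh2-/- lowest. Among the microRNAs antisense to Rtl1, which cut the paternal Rtl1 transcript in mouse placenta, miR-433-3p had 397 counts in Jarid2-/- and 5 in Ezh2-/-, 300.1-fold higher (95% interval 128 to 929). Its neighbour miR-127-3p had 393 counts in Jarid2-/- and 39 in Ezh2-/-, 38.1-fold higher (95% interval 27.4 to 54.4). The intervals of these neighbours allow for counting error alone and do not overlap, so the size of the difference varied between single members. It also varied between arms of a hairpin, as miR-127-5p had 364 counts in Jarid2-/- and 12 in Ezh2-/-. The counts of miR-433-5p were 9 in Jarid2-/- and 1 in Ezh2-/-. In Rian, miR-370-3p had 475 counts in Jarid2-/- and 18 in Ezh2-/-, 99.7-fold higher (95% interval 62.4 to 169.8). For miR-380-3p, with 194 counts in Jarid2-/- and none in Ezh2-/-, the level was at least 244-fold higher.

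At the low end of the well-counted members, miR-337-5p had 59 counts in Jarid2-/- and 30 in Ezh2-/-, 7.43-fold higher (95% interval 4.71 to 11.95). Its partner miR-337-3p had 73 counts in Jarid2-/- and 23 in Ezh2-/-, a log2 ratio of 2.48. Both lay below the other genotypes, with 181 CPM in Eed-/- and 1132 CPM in wild-type cells for the 3p arm. The major wild-type member miR-409-3p had 30.9 CPM in Jarid2-/- and 5.64 CPM in Ezh2-/-, with 583 CPM in Eed-/- and 4383 CPM in wild-type cells. Its 5p partner reached 27.6 CPM in Jarid2-/- and 0.811 CPM in Ezh2-/-. The 2 arms of miR-409 were thus near equal in Jarid2-/- and unequal in Ezh2-/-.

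**Figure D2:**
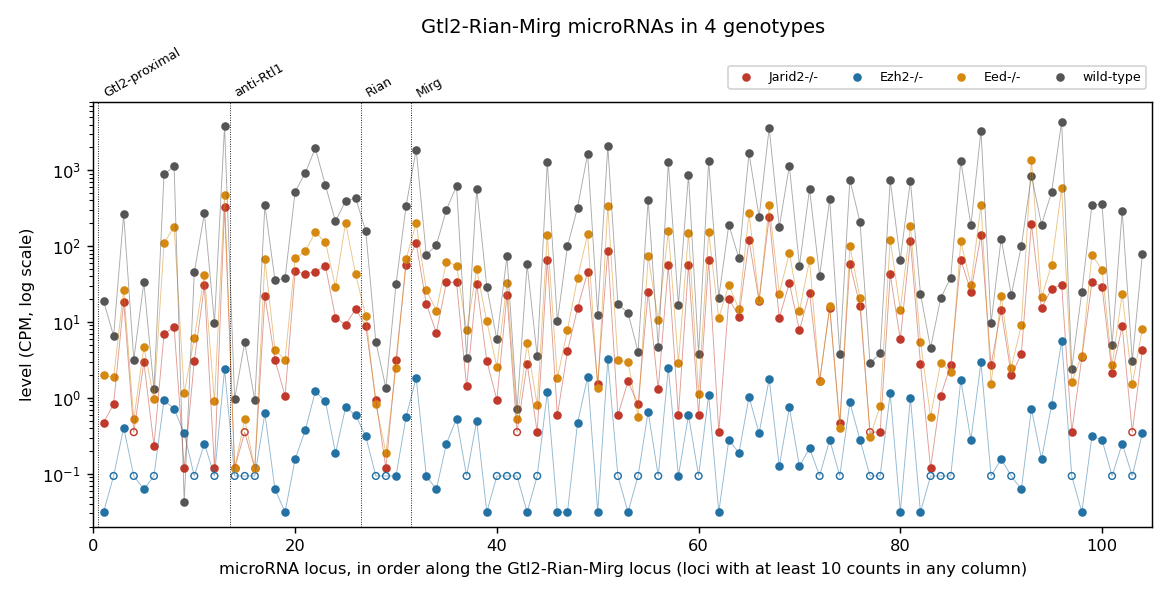
Level in CPM (log scale) of 104 Gtl2-Rian-Mirg loci with at least 10 counts in any of the 4 columns, in order along the locus, with 1 colour per genotype. Open circles are counts of 0, drawn at the level of 3 counts, and dotted lines separate the 4 stretches. The Jarid2-/- points lie above the Ezh2-/- points along nearly the whole locus and mostly below those of wild-type cells.

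The miR-290 cluster, transcribed in the mouse inner cell mass and ES cells and known to promote rapid cycling and pluripotency, was the most abundant in both columns. It summed to 381873 CPM in Jarid2-/- and 459425 CPM in Ezh2-/-, with 444418 in Eed-/- and 397409 in wild-type, and was 1.20-fold lower. Of 18 loci 14 passed the minimum, all in both columns. Of these, 4 (28.6%) were higher and 2 (14.3%) lower, beside 33% and 8.92% over all loci, with a median of -0.09. With TMM 4 of the 14 were higher and 5 lower, beside 24.3% and 19.2% over all loci. The sum was close, and the difference lay in single arms.

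Every one of the 4 higher loci was a 5p arm. miR-294-5p had 3804 CPM in Jarid2-/- and 17.5 CPM in Ezh2-/-, 217-fold higher (95% interval 200.1 to 237), with 6968 CPM in Eed-/- and 96.5 CPM in wild-type cells. For miR-292-5p the levels were 22355 CPM in Jarid2-/- and 495 CPM in Ezh2-/-, 45.1-fold higher (95% interval 44.4 to 45.9), with 24773 CPM in Eed-/- and 3582 CPM in wild-type cells. The third, miR-295-5p, had 2192 CPM in Jarid2-/- and 47.4 CPM in Ezh2-/-, 46.2-fold higher (95% interval 43.9 to 48.7), with 706 CPM in Eed-/- and 69.7 CPM in wild-type cells. In these 3 the Jarid2-/- and Eed-/- levels were high and the Ezh2-/- and wild-type levels low. The fourth, miR-291a-5p, had 6611 CPM in Jarid2-/- and 1086 CPM in Ezh2-/-, 6.09-fold higher (95% interval 6.01 to 6.17). Neither miR-294-5p, miR-292-5p nor miR-295-5p lies within 2 mismatches of another mature sequence.

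The 3p arms stayed closer. Those of miR-294, miR-295 and miR-291a carry the seed AAGUGCU, those of miR-292 and miR-291b differ from it in the last base, and miR-293-3p has the seed GUGCCGC. miR-294-3p, the most abundant locus in both columns, had 151279 CPM in Jarid2-/- and 164809 CPM in Ezh2-/-, a log2 ratio of -0.12. Lower values were found for miR-293-3p, with 64340.3 CPM in Jarid2-/- and 108603 CPM in Ezh2-/- (1.69-fold lower), and for miR-292-3p, with 43537 CPM in Jarid2-/- and 85326 CPM in Ezh2-/- (1.96-fold lower). Both stayed within 2-fold. miR-291b-3p passed the limit, with 4570.2 CPM in Jarid2-/- and 9928 CPM in Ezh2-/-, a log2 ratio of -1.12. Its level was 3013 CPM in Eed-/- and 269 CPM in wild-type cells.

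The miR-302 cluster rises in primed, epiblast-like cells. The 3p arms of miR-302a, miR-302b and miR-302d share the AAGUGCU seed, while miR-302c-3p has AGUGCUU and miR-367-3p AUUGCAC. It summed to 12785 CPM in Jarid2-/- and 5222 CPM in Ezh2-/-, with 15574 in Eed-/- and 7743 in wild-type, and was 2.45-fold higher (95% interval 2.43 to 2.47). All 10 loci passed in both columns, and 9 were higher, beside 33% over all loci. With TMM 6 of the 10 were higher, beside 24.3% over all loci. The median of the cluster was 1.81 (1.17 with TMM). Its largest member, miR-302d-3p, had 6049 CPM in Jarid2-/- and 2655 CPM in Ezh2-/-, 2.28-fold higher. miR-302c-3p, with 1004 CPM in Jarid2-/- and 750.4 CPM in Ezh2-/-, was the member within 2-fold, and TMM turned its sign. Without similar loci 7 of 7 were higher.

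Grouped by seed, with each mature name counted once, the main ES cell seed was nearly level. The 6 detected names with seed AAGUGCU summed to 189829 CPM in Jarid2-/- and 197798 CPM in Ezh2-/-, with 151209 in Eed-/- and 185925 in wild-type. Of 42 seeds with at least 1000 CPM on average over the columns, 12 were at least 2-fold higher in Jarid2-/- and 5 at least 2-fold lower. Over all single loci 33% were higher and 8.92% lower. The seed sums are scaled to the same column totals as the single loci. A seed sum is unaffected where counts only pass between members of 1 seed, but adds a read again where several members list it.

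The seed GUGCAAA of miR-19a-3p and miR-19b-3p summed to 44477 CPM in Jarid2-/- and 94692 CPM in Ezh2-/-, with 67431 in Eed-/- and 65155 in wild-type. That is 2.13-fold lower, although miR-19a-3p alone was 4.79-fold higher and miR-19b-3p alone 3.24-fold lower. The sum was thus lower in Jarid2-/- cells, while its members stood on opposite sides. The seed GCAGCAU of miR-103-3p and miR-107-3p, hosted by pantothenate kinase genes, summed to 48273 CPM in Jarid2-/- and 11332 CPM in Ezh2-/-, with 23992 in Eed-/- and 29589 in wild-type, 4.26-fold higher. For miR-101a-3p and miR-101b-3p (seed ACAGUAC), known for targeting EZH2 in human cells, the sums were 1551 CPM in Jarid2-/- and 212 CPM in Ezh2-/-, with 1442 in Eed-/- and 809.6 in wild-type, 7.33-fold higher. The miR-7 seed GGAAGAC was near level at 5595 CPM in Jarid2-/- and 4803 CPM in Ezh2-/-.

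The miR-17 family clusters, which drive proliferation and are targets of Myc, hold 30 loci, all with at least 10 counts in both columns. Of these 14 (46.7%) were higher and 4 (13.3%) lower, beside 33% and 8.92% over all loci, with a median of 0.77 (0.12 with TMM). With TMM 8 were higher and 7 lower, beside 24.3% and 19.2% over all loci. The sum was 1.24-fold lower. However, the 30 loci hold 28 names, and the sum adds miR-19b-3p and miR-92a-3p at each of their 2 loci. The members spread widely, from -1.69 for miR-19b-3p to 3.77 for miR-20b-3p. By hairpin cluster, miR-17 to miR-92a on chromosome 14 had 4 of 12 loci higher and 3 lower (median -0.02). The X-linked cluster of miR-106a to miR-363 had 9 of 12 higher and 1 lower (median 1.41), and miR-25 to miR-106b on chromosome 5 had 1 of 6 higher (median 0.16). The X-linked miR-20b-5p had 26222 CPM in Jarid2-/- and 6571 CPM in Ezh2-/-, 3.99-fold higher, with 7748 CPM in Eed-/- and 7749.7 CPM in wild-type cells. Among the 4 columns it was highest in Jarid2-/- cells. It is a similar locus, 2 substitutions from miR-17-5p. The ratio of miR-20b-5p to miR-17-5p was 1.06 in Jarid2-/- and 0.200 in Ezh2-/-, with 0.449 in Eed-/- and 0.422 in wild-type. Their shared seed AAAGUGC, counted once per name, summed to 76649 CPM in Jarid2-/- and 55258 CPM in Ezh2-/-, 1.39-fold higher. miR-363-3p, with 1203 CPM in Jarid2-/- and 216 CPM in Ezh2-/-, was 5.57-fold higher. miR-17-5p itself stayed within 2-fold, at 24854 CPM in Jarid2-/- and 32791 CPM in Ezh2-/-.

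The let-7 family, which Lin28 holds back in ES cells and which rises as they differentiate, was higher in Jarid2-/- cells. Over 26 loci it summed to 1371 CPM in Jarid2-/- and 284 CPM in Ezh2-/-, with 678 in Eed-/- and 469 in wild-type, 4.82-fold higher (95% interval 4.69 to 4.96). Of 18 loci that passed, 17 with at least 10 counts in both columns, 10 (55.6%) were higher and none lower. Over all loci 33% were higher and 8.92% lower. The median of the let-7 family was 1.96 (1.32 with TMM). Its most abundant member, let-7g-5p, had 335 CPM in Jarid2-/- and 67.9 CPM in Ezh2-/-, with 88.1 CPM in Eed-/- and 173 CPM in wild-type cells. Counted once per name, the seed GAGGUAG summed to 973 CPM in Jarid2-/- and 194 CPM in Ezh2-/-, 5.01-fold higher. In all 4 columns let-7 stayed a small share of the microRNAs. All but 1 of the 18 loci were similar loci, so the single-locus values may share reads.

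MicroRNAs of the Hox clusters, whose host loci are classical PRC2 targets, lay lower in Jarid2-/-. Their 12 loci summed to 28.5 CPM in Jarid2-/- and 219 CPM in Ezh2-/-, with 1767 in Eed-/- and 211 in wild-type, 7.68-fold lower (95% interval 6.76 to 8.77). This sum, 7026 counts in Ezh2-/-, adds miR-196a-5p at each of its 2 loci. The interval treats those counts as separate reads. Of 8 that passed, 2 of them through Ezh2-/- alone, none was higher and 4 were lower, with a median of -1.56. Over all loci 33% were higher and 8.92% lower. With TMM 5 of the 8 were lower, beside 19.2% over all loci. miR-196a-5p had 20 counts in Jarid2-/- and 2585 in Ezh2-/-, which is 2.36 CPM in Jarid2-/- and 80.6 CPM in Ezh2-/-, 34.2-fold lower (95% interval 22.1 to 56.1), with 321 CPM in Eed-/- and 80.8 CPM in wild-type cells. miR-196b-5p had 19 counts in Jarid2-/- and 556 in Ezh2-/-, 7.74-fold lower (95% interval 4.91 to 12.96). The members of miR-10 stayed within 2-fold, with 12.02 CPM in Jarid2-/- and 17.9 CPM in Ezh2-/- for miR-10b-5p, against 503.3 CPM in Eed-/- and 15.2 CPM in wild-type cells. The Hox microRNAs were thus highest in Eed-/- cells, and those of miR-196 lowest in Jarid2-/- cells.

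The lowest ratios of all were those of the 3 loci of miR-124-3p, the microRNA of differentiating neurons, with log2 ratios of -6.58, -6.61 and -6.64. The locus at chr14:65209546-65209565 had 133 counts in Jarid2-/- and 51273 in Ezh2-/-, which is 15.7 CPM in Jarid2-/- and 1599 CPM in Ezh2-/-, 102-fold lower (95% interval 86.04 to 122). Its level was 993 CPM in Eed-/- and 1014 CPM in wild-type cells. Its 5p partner was near level, with 176 CPM in Jarid2-/- and 206 CPM in Ezh2-/-, and 85.9 CPM in Eed-/- and 72.3 CPM in wild-type cells. The low value in Jarid2-/- was thus that of 1 arm.

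Other microRNAs were low in Jarid2-/- against all 3 other columns. miR-22-3p had 84 counts in Jarid2-/- and 10541 in Ezh2-/-, 33.2-fold lower (95% interval 26.8 to 41.7), and its level was 9.90 CPM in Jarid2-/-, 329 CPM in Ezh2-/-, 351 CPM in Eed-/- and 499.7 CPM in wild-type cells. miR-320-3p, which is made without Drosha, had 44.2 CPM in Jarid2-/- and 517 CPM in Ezh2-/-, 11.7-fold lower (95% interval 10.6 to 12.99), with 579 CPM in Eed-/- and 544 CPM in wild-type cells. miR-126a-3p, the endothelial microRNA hosted by Egfl7, had 25.6 CPM in Jarid2-/- and 319 CPM in Ezh2-/-, 12.5-fold lower (95% interval 10.9 to 14.4), with 494 CPM in Eed-/- and 97.3 CPM in wild-type cells. In each of these 3 the Jarid2-/- column was the lowest of the 4.

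Further down the same end came miR-15b-3p (10.2-fold lower) and miR-31-5p (7.88-fold lower), and miR-674-5p (6.37-fold lower). miR-143-3p, a smooth muscle microRNA, had 47 counts in Jarid2-/- and 1382 in Ezh2-/-, 7.78-fold lower. The remaining 6 of the 15 lowest were miR-6398, miR-1968-5p, miR-6410, miR-181d-3p, miR-195a-3p and miR-147-3p, with 2 to 59 counts in Jarid2-/- and 236 to 1683 in Ezh2-/-. miR-31-5p reached 2169 CPM in Eed-/- cells.

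**Figure D3:**
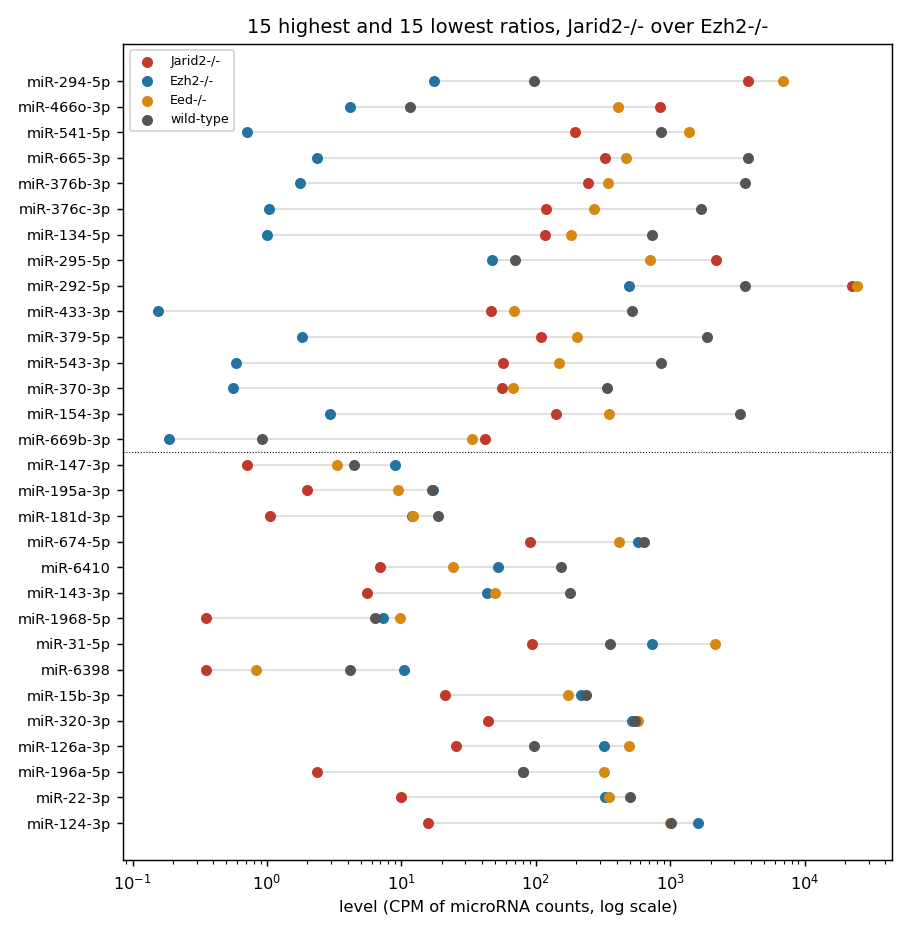
Level in CPM (log scale) of the 15 microRNAs with the highest and, below the dotted line, the 15 with the lowest ratio of Jarid2-/- over Ezh2-/-, with 1 point per genotype and levels under 3 counts drawn at 3 counts. Each of the 15 highest has its lowest point in Ezh2-/-, and each of the 15 lowest has its lowest point in Jarid2-/-.

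Lists chosen for other tissues held loci on both sides. Neural microRNAs had 9 of 48 loci higher and 7 lower (median -0.15). These 48 loci hold 33 names, and 3 of the 7 lower loci are copies of miR-124-3p. With 1 value per mature name the neural median changed sign. Epithelial and endodermal microRNAs had 7 of 29 higher and 6 lower (median -0.42), and muscle and mesenchymal ones 5 of 17 higher and 4 lower (median 0.05, -0.18 with TMM). Without similar loci, 8 of 34 neural loci were higher and 6 lower. Of 25 such epithelial and endodermal loci, 7 were higher and 4 lower. Of 8 such muscle and mesenchymal loci, none was higher and 4 were lower (median -0.65). Over all loci without a similar sequence, 169 of 644 were higher and 67 lower. The share of higher loci was 18.8% of neural, 24.1% of epithelial and endodermal and 29.4% of muscle and mesenchymal loci. It was 33% over all loci and 20.0% over the 719 loci outside the Gtl2-Rian-Mirg and Sfmbt2 lists. Lower were 14.6% of neural, 20.7% of epithelial and endodermal and 23.5% of muscle and mesenchymal loci. The share of lower loci was 8.92% over all loci and 11.4% over those 719. With TMM 14 neural, 15 epithelial and endodermal and 5 muscle and mesenchymal loci were lower, beside 19.2% over all loci. Through Ezh2-/- alone passed 3 of the neural, 5 of the epithelial and endodermal and 5 of the muscle and mesenchymal loci.

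Within them, miR-205-5p, a microRNA of stratified epithelium, had 4088 CPM in Jarid2-/- and 147 CPM in Ezh2-/-, 27.9-fold higher (95% interval 27.03 to 28.7), with 1011 CPM in Eed-/- and 1554 CPM in wild-type cells. In the miR-183 cluster of sensory epithelia, miR-183-5p was 2.46-fold higher and miR-182-5p, at 11073 CPM in Jarid2-/- and 14864 CPM in Ezh2-/-, stayed within 2-fold. miR-135b-5p had 1011 CPM in Jarid2-/- and 5413 CPM in Ezh2-/-, 5.35-fold lower. Of the 29 epithelial and endodermal loci, miR-205-5p had the highest ratio and miR-31-5p the lowest.

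Blood and endothelial microRNAs had 1 of 14 loci (7.14%) higher and 6 (42.9%) lower, beside 33% and 8.92% over all loci. Of the 14, 2 had passed through Ezh2-/- alone, and the median was -0.66. With TMM 1 of the 14 was higher and 10 were lower, beside 24.3% and 19.2% over all loci. The list summed to 3331 CPM in Jarid2-/- and 10196 CPM in Ezh2-/-. Most of this sum was miR-150-5p, a lymphocyte microRNA, with 2769 CPM in Jarid2-/- and 9074 CPM in Ezh2-/- (3.28-fold lower). miR-142-5p, found in blood cells, had 39.2 CPM in Jarid2-/- and 134 CPM in Ezh2-/-, with 2.44 CPM in Eed-/- and 212 CPM in wild-type cells. miR-155-5p was 3.49-fold lower. The one higher locus was miR-126b-5p, read from the strand opposite to miR-126a, with 91.9 CPM in Jarid2-/- and 2.59 CPM in Ezh2-/-, and 34.02 CPM in Eed-/- and 10.1 CPM in wild-type cells.

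Among families tied to growth control, single members differed in both directions. The p53 target miR-34a-5p had 4678 CPM in Jarid2-/- and 10641 CPM in Ezh2-/-, 2.27-fold lower, with 4929 CPM in Eed-/- and 11211 CPM in wild-type cells. The hypoxia-induced miR-210-3p had 82.5 CPM in Jarid2-/- and 336 CPM in Ezh2-/-, 4.08-fold lower, with 554 CPM in Eed-/- and 3317 CPM in wild-type cells. Each of these was lower in Jarid2-/- cells. miR-21a-5p was within 2-fold, at 5642 CPM in Jarid2-/- and 4851 CPM in Ezh2-/-, and miR-221-3p, which restrains the cell-cycle inhibitor p27, was 11.8-fold higher (95% interval 9.68 to 14.6). The levels of miR-221-3p were 47.3 CPM in Jarid2-/- and 3.99 CPM in Ezh2-/-, with 184 CPM in Eed-/- and 221 CPM in wild-type cells. miR-222-3p, with the same seed, stayed within 2-fold, at 54.7 CPM in Jarid2-/- and 35.2 CPM in Ezh2-/-. Of the miR-15/16 clusters, miR-15a-5p was 4.47-fold lower and miR-16-5p 2.03-fold higher. The list median of miR-15/16 was 0.01, and -0.44 with TMM.

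A pair of X-linked clusters differed in opposite directions. The miR-322 to miR-450 cluster had 5 of 13 loci lower and none higher (2 of the 13 passed through Ezh2-/- alone), with a median of -0.89 and a sum of 385 CPM in Jarid2-/- and 932 CPM in Ezh2-/-. Its main member miR-322-5p, a brake on the cell cycle, had 276 CPM in Jarid2-/- and 692 CPM in Ezh2-/-, with 1459 CPM in Eed-/- and 1015 CPM in wild-type cells. The miR-500 to miR-532 cluster, in introns of Clcn5, had 6 of 10 loci higher and none lower, with a median of 1.26. It summed to 1261 CPM in Jarid2-/- and 587 CPM in Ezh2-/-, and none of its 10 loci is a similar locus. Over all loci 33% were higher and 8.92% lower. With TMM 9 of the 13 loci of miR-322 to miR-450 were lower, and of the 10 of miR-500 to miR-532, 4 were higher and 1 lower.

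Of other lists, the miR-30 family (median -0.52), miR-148 and miR-152 (-0.40), miR-99, miR-100 and miR-125 (-0.42), miR-29 (-0.21), miR-34 (-0.29) and miR-23, miR-27 and miR-24 (-0.26) had medians below 0. Those of miR-130 and miR-301 (0.77), miR-181 (0.30), miR-101 with miR-26 (0.28), the germline-expressed X cluster (0.20) and the other imprinted microRNAs (0.33) lay above 0, and with TMM all of these except the miR-130 and miR-301 family turned below 0. Among the imprinted ones, miR-298-5p from the Gnas locus had 1307 CPM in Jarid2-/- and 352 CPM in Ezh2-/-, 3.71-fold higher, with 1309 CPM in Eed-/- and 1668 CPM in wild-type cells. Its log2 ratio of 1.89 was the highest of the 9 loci of that list.

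The list of the large cluster in an intron of Sfmbt2, itself an imprinted Polycomb gene, had 87 of 134 loci (64.9%) higher and 1 lower. Over all loci 33% were higher and 8.92% lower. With TMM 61 of the 134 were higher and 3 lower, beside 24.3% and 19.2% over all loci. Of the 134, 123 passed in both columns, and the list median was 1.32 (0.67 with TMM). Taken by name, the list includes loci on other chromosomes. The cluster on chromosome 2 itself had 84 of 130 loci higher and 1 lower. The 148 loci of the list summed to 113565 CPM in Jarid2-/- and 36884 CPM in Ezh2-/-, with 116093 in Eed-/- and 61942 in wild-type. The repeated hairpins share sequence, and the 134 loci hold 59 distinct mature sequences. At all but 1 of their loci, miR-466b-3p, miR-466c-3p and miR-466e-3p were listed with the same 33695 counts in Jarid2-/- and the same 16486 in Ezh2-/-, and the sum adds these counts at each locus. Only 8 of the 134 are not similar loci, and 2 of these were higher and none lower (median -0.16).

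Within the cluster, miR-466o-3p had 7156 counts in Jarid2-/- and 133 in Ezh2-/-, 203-fold higher (95% interval 171 to 243), with 411 CPM in Eed-/- and 11.7 CPM in wild-type cells. miR-669b-3p had 354 counts in Jarid2-/- and 6 in Ezh2-/-, a log2 ratio of 5.17, with 33.7 CPM in Eed-/- and 0.925 CPM in wild-type cells. Both were high in Jarid2-/- and Eed-/- and low in Ezh2-/- and wild-type. Counted once per name, the seed AUACAUA shared by 8 detected names, among them miR-466a-3p and miR-297a-3p, was 5.33-fold higher. Its members miR-466a-3p and miR-466e-3p hold the same mature sequence and nearly the same counts, so this sum adds them more than once.

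**Figure D4:**
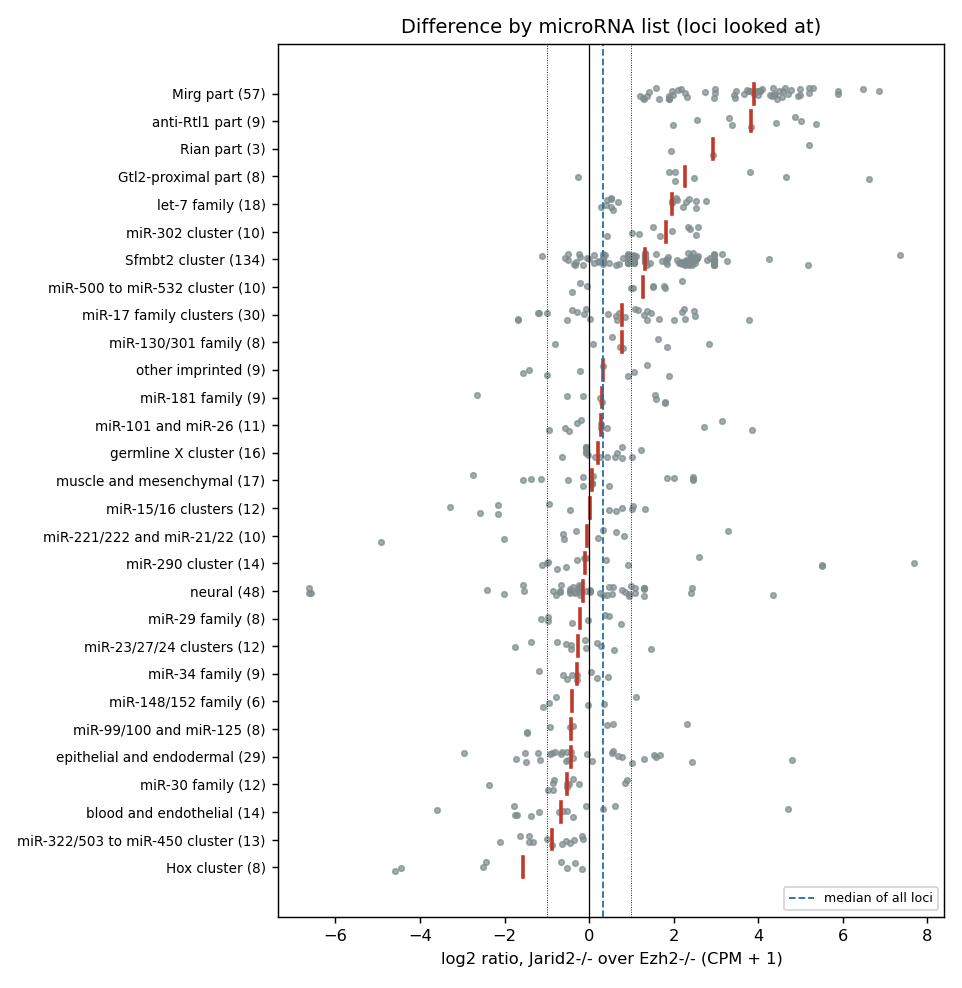
Log2 ratio of Jarid2-/- over Ezh2-/- (CPM plus 1) of each locus that passed the minimum, by list, with the number of loci in brackets and the list median as a red bar. The dashed line is the median of all 930 loci, 0.33, and dotted lines mark a 2-fold difference. The 4 stretches of the Gtl2-Rian-Mirg locus have the highest medians and the Hox cluster the lowest.

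The balance between the arms of a hairpin does not depend on the scaling of a column. For 218 hairpins whose arms together had at least 100 counts in both columns, the log2 ratio of 5p over 3p counts was compared. It differed at least 2-fold between Jarid2-/- and Ezh2-/- in 102 hairpins (46.8%), toward the 5p arm in 62 and toward the 3p arm in 40. In 14 the major arm changed. Among 99 hairpins without similar loci, 49 differed. The 218 include genomic copies that carry the same name. With 1 copy per name, 96 of 184 hairpins differed and the major arm changed in 12.

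Several of the extreme ratios were of this kind. The 5p arm made up 2.45% of miR-294 counts in Jarid2-/- and 0.0106% in Ezh2-/-, with 5.69% in Eed-/- and 0.0631% in wild-type. For miR-292 its share was 33.9% in Jarid2-/- and 0.577% in Ezh2-/-, with 23.6% in Eed-/- and 11.8% in wild-type. In miR-295 it was 11.5% in Jarid2-/- and 0.231% in Ezh2-/-, with 4.78% in Eed-/- and 0.419% in wild-type. The 3p arm stayed the major arm of these 3 hairpins in all 4 columns.

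The major arm of miR-124 changed. Its 5p arm held 91.8% of counts in Jarid2-/- and 11.4% in Ezh2-/-, with 7.96% in Eed-/- and 6.65% in wild-type. For miR-22 the 5p share was 67.6% in Jarid2-/- and 7.35% in Ezh2-/-, with 9.43% in Eed-/- and 6.38% in wild-type. Here Jarid2-/- stood apart from the other 3 columns. For miR-31 it was 49.3% in Jarid2-/- and 91.9% in Ezh2-/-, with 92.95% in Eed-/- and 88.8% in wild-type, again with Jarid2-/- apart.

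In miR-221 the column that stood apart was Ezh2-/-. Its 5p share was 4.75% in Jarid2-/- and 50.6% in Ezh2-/-, with 2.99% in Eed-/- and 5.06% in wild-type. For miR-126b it was 96.8% in Jarid2-/- and 34.6% in Ezh2-/-, with 87.7% in Eed-/- and 77.5% in wild-type. In miR-744 the columns split into pairs, with 85.02% in Jarid2-/- and 38.002% in Ezh2-/-, and 85.3% in Eed-/- and 40.1% in wild-type.

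Over all 218 hairpins, copies included, the median distance in arm balance between Jarid2-/- and Ezh2-/- was 0.99 on the log2 scale. It was 0.71 for Jarid2-/- and Eed-/-, 0.87 for Jarid2-/- and wild-type, 0.73 for Eed-/- and Ezh2-/-, 0.85 for Eed-/- and wild-type, and 0.59 for Ezh2-/- and wild-type. With 1 copy per name Jarid2-/- and Ezh2-/- were 1.07 apart and Jarid2-/- and wild-type 0.97. With similar loci also left out, the 96 remaining hairpins gave 0.94 for Jarid2-/- and Ezh2-/- and 0.97 for Jarid2-/- and wild-type, so which pair lay furthest apart depends on the hairpins kept. With 1 column per genotype the distance between replicates of 1 genotype is not known.

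**Figure D5:**
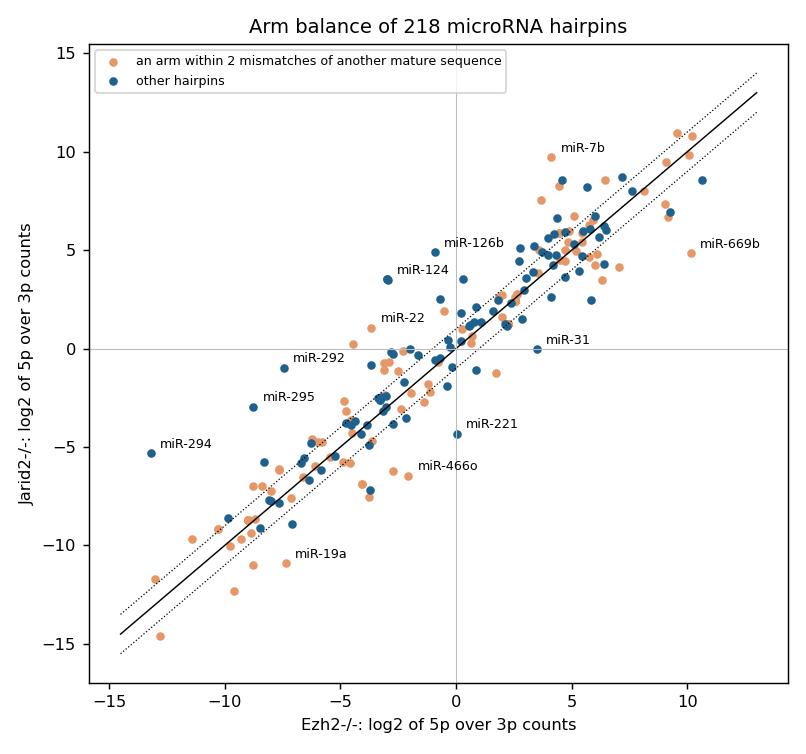
Arm balance, log2 of 5p over 3p counts, of 218 hairpins in Jarid2-/- cells (vertical axis) against Ezh2-/- cells (horizontal axis). Orange points have an arm within 2 mismatches of another mature sequence, the solid line marks equal balance and the dotted lines a 2-fold difference. miR-294, miR-124, miR-292, miR-126b and miR-295 lie furthest above the line.

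Shares of higher loci differed between classes of sequence, in part through the Sfmbt2 cluster. Outside the Gtl2-Rian-Mirg cluster, loci that match another mature name without a mismatch were higher in Jarid2-/- in 61.5% of 109 cases and those 1 mismatch from another sequence in 43.4% of 106. The share was 25.8% at 2 mismatches, 24.4% at 3, 26.9% at 4, 21.3% at 5, 11.9% at 6 and 17.4% at 7 or more. Similar loci as a whole were higher in 46.6% of 277 cases and other loci in 17.7% of 576. With the Sfmbt2 cluster also left out these shares were 29.1% of 151 and 17.6% of 568. Loci with a GC content under 35% were higher in 48.9% of 94 cases and those of 55% or more in 12.9% of 194. Without the Sfmbt2 cluster 24.6% of 57 low-GC loci were higher and 19.3% lower (median -0.19), and of the 194 with high GC 12.9% were higher and 10.3% lower (median 0.09). Outside the Sfmbt2 cluster, low GC content thus did not go with a higher median. By arm, and outside both clusters, 26.7% of 300 5p loci and 14.8% of 357 3p loci were higher. The part of these features in the differences was not tested.

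Over all loci without a similar sequence, 169 of 644 were higher and 67 lower, with a median of 0.15. The Gtl2-Rian-Mirg loci, the 5p arms of miR-294, miR-292 and miR-295, and miR-124-3p are among those that remain. The let-7 and Sfmbt2 lists rest almost wholly on similar loci.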

How the data were processed

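Small RNA sequencing tables of Jarid2-/-, Ezh2-/-, Eed-/- and wild-type mouse ES cells were used, 1 count column each. Per the labels, RNA of 18 to 40 nt was selected, and mm9, cutadapt and Bowtie are named in the submitters' processing notes. Their versions, and how multi-mapping reads were handled, are not stated in the sources. The deposited values are counts per mature locus of miRBase release 20, which the authors also gave as RPM, scaled to their read total. The RPM denominators were obtained by dividing these deposited columns. Coordinates are those of the deposited tables.

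Log2 ratios used CPM of the column's microRNA total plus a pseudocount of 1. A locus needed 10 counts in either column and was called at 2-fold. Folds are CPM ratios without pseudocount, with exact conditional binomial 95% intervals. TMM came from edgeR 4.0.16 and median-ratio factors from DESeq2 1.42.0. The planned tests across libraries needed replicates and were replaced by ratios. The ratio calculation was tested on simulated data. Named were the 15 highest and 15 lowest ratios among loci with at least 50 counts, the 8 most abundant per column, the most abundant of each list and the largest arm differences. Both arms of miR-337 and miR-409, and miR-103-3p, miR-107-3p, miR-155-5p, miR-20b-3p, miR-291a-5p, miR-291b-3p, miR-3544-5p, miR-363-3p, miR-380-3p, miR-5099, miR-744-5p and the loci nearest the limit were added after their values were seen. The members and lists were chosen with earlier results of these data known. The chromatin and messenger RNA samples were not analysed here.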

Additional observations from a re-analysis of the deposited data

How the results depend on the processing

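The count of lower loci depended most on the processing. It was 83 as reported, 179 with TMM, 150 with median-ratio factors, 46 with the authors' read denominators, 145 with a pseudocount of 0.1 CPM and 42 with one of 10 CPM. The count of higher loci, 307 as reported, was 169 without loci within 2 mismatches of another mature sequence, an alternative chosen after seeing the data that leaves 644 loci. Under the other alternatives it ran from 206 to 347. The summed fold of the Gtl2-Rian-Mirg cluster, 57.4 as reported, was 36.6 with TMM and 40.3 with median-ratio factors. The median of the Sfmbt2 list, 1.32 as reported, was -0.16 without similar sequences, which leaves 8 of its loci, and the cause was not tested. Of 83 named loci past 2-fold, 74 stayed past it with TMM, 77 with median-ratio factors, 78 with the read denominators and 73 with a pseudocount of 10 CPM, and none of them changed direction. The share of hairpins with a 2-fold difference in arm balance was 46.8% as reported, 46.7% with at least 1000 counts, 49.5% without similar sequences and 52.2% with 1 copy per hairpin name, the last also chosen after seeing the data. No paired analysis was possible because each genotype has 1 deposited count column. Depth limits the Gtl2-Rian-Mirg values in Ezh2-/-, where most members have under 10 counts, and the low loci in the shallower Jarid2-/- column.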

Other observations

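Loci in none of the lists numbered 378, and their log2 ratios had a median of 0.10. At least 2-fold higher in Jarid2-/- were 57 of them, and 27 were at least 2-fold lower. Both are smaller shares than the 33% higher and 8.92% lower over all 930 loci. miR-5099 had 2358 CPM in Jarid2-/- and 109 CPM in Ezh2-/-, 21.5-fold higher (95% interval 20.8 to 22.3), with 995 CPM in Eed-/- and 165 CPM in wild-type cells. miR-744-5p had 367 CPM in Jarid2-/- and 39.8 CPM in Ezh2-/-, 9.22-fold higher (95% interval 8.63 to 9.84), with 216 CPM in Eed-/- and 59.9 CPM in wild-type cells. Both were higher in Jarid2-/- and Eed-/- than in Ezh2-/- and wild-type cells.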
